A study of Mus musculus with 2 samples.

Results

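The genes that make, store, take up, sense and break down dopamine were examined in the midbrain of mouse embryos at embryonic day 10.5. The set holds 9 genes chosen by name out of 43346 gene identifiers in the tables: Gch1, Th, Ddc, Slc18a2, Slc6a3, Maoa, Maob, Drd2 and Pitx3. All 9 had a row in both libraries. Levels are in TPM, which scale a gene's reads by its length and by the library's total, and at least 1 TPM in both libraries was taken as detection. That level was reached by 6 of them, namely Maoa, Ddc, Slc18a2, Th, Maob and Gch1. Drd2, Pitx3 and Slc6a3 stayed below it in both. Over all protein-coding genes, 12477 of 21474 were detected, a share to set beside each count of detected genes here.

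Dopamine is made from tyrosine by tyrosine hydroxylase (Th), the rate-limiting enzyme, which uses the cofactor tetrahydrobiopterin made through GTP cyclohydrolase (Gch1), and by aromatic L-amino acid decarboxylase (Ddc). The vesicular monoamine transporter VMAT2 (Slc18a2) loads it into vesicles, the dopamine transporter (Slc6a3) takes it back up, the monoamine oxidases (Maoa, Maob) break it down, and the D2 receptor (Drd2) senses it on target cells and on the dopaminergic neurons themselves. In the ventral midbrain these neurons arise from the floor plate, switch on the nuclear receptor gene Nr4a2 as they leave the cell cycle, and depend on the homeobox factor Pitx3 for their later development.

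Both libraries were made from pooled, healthy, male and female B6NCrl embryos that carry no stated mutation or treatment, so there is 1 group and no condition to compare. Replicate 1 came from the midbrains of 69 embryos and replicate 2 from those of 51 embryos, and both started from 10 ng of RNA longer than 200 nt. Summed over genes, the expected counts came to 45531621 in replicate 1 and 50477634 in replicate 2, and the libraries differed beyond counting noise, with a chi-square of 32.7 per degree of freedom over 17751 genes. Each value is an average over a pool of whole dissected tissue, in which fewer cells of a type and less RNA per cell cannot be told apart.

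The label midbrain was set beside regulators of the dopaminergic lineage and of the region, of which 16 of 17 were detected. Detection alone does not show the region, as 12477 of 21474 protein-coding genes were detected too. Otx2, the forebrain and midbrain homeobox gene, had 138 TPM in replicate 1 and 123 TPM in replicate 2. Msx1, expressed in the midbrain floor and roof, had 126 TPM in replicate 1 and 131 TPM in replicate 2. The lowest gene, the midbrain-hindbrain factor En2, had 0.92 TPM in replicate 1 and 0.71 TPM in replicate 2. Nkx2-1, which marks the hypothalamus, was also present at 7.93 TPM in replicate 1 and 7.77 TPM in replicate 2.

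**Figure D1:**
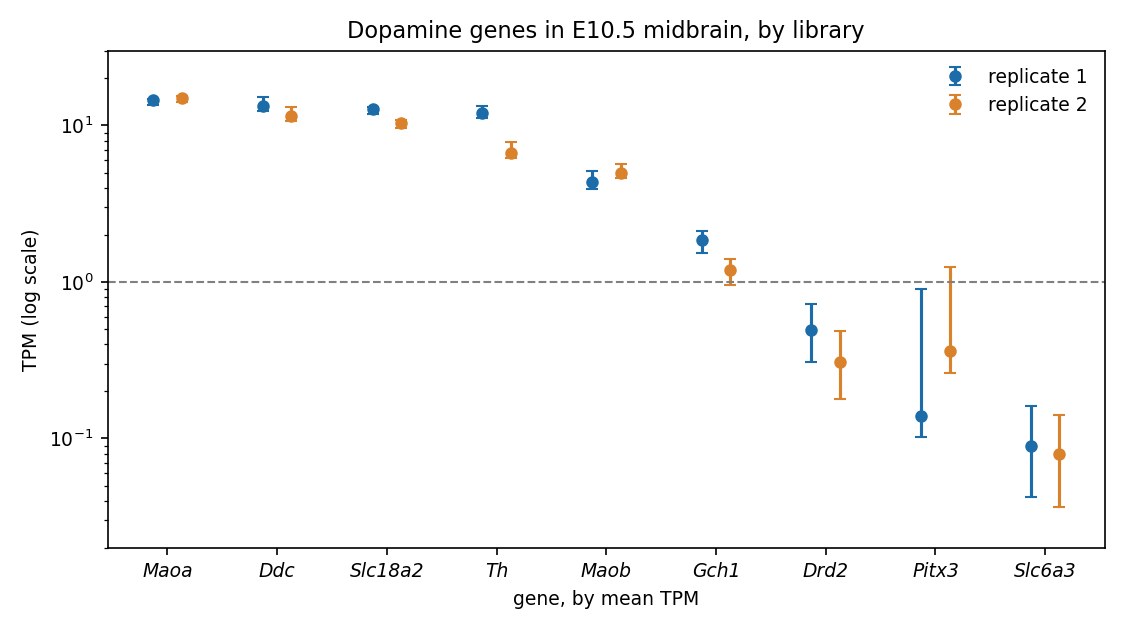
TPM of the 9 genes on a log axis, ordered by mean, in replicate 1 (blue) and replicate 2 (orange), with the deposited credible intervals as bars and the detection level of 1 TPM as a dashed line. Maoa, Ddc, Slc18a2 and Th lie within 6.68 to 15.0 TPM, Maob and Gch1 below them, and Drd2, Pitx3 and Slc6a3 under the dashed line.

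Maoa stood first in the order of mean levels, followed by Ddc, Slc18a2, Th, Maob, Gch1, Drd2, Pitx3 and Slc6a3. Among neighbours in this order, the ranges spanned by the libraries overlapped for Ddc and Slc18a2, for Slc18a2 and Th, and for Drd2 and Pitx3. Within each library, the credible intervals of Ddc and Slc18a2 and those of Drd2 and Pitx3 overlapped, so their order is not settled. Slc18a2 was above Th in both libraries, with intervals that overlapped in replicate 1 and did not in replicate 2. The same held for Maoa above Ddc and for Pitx3 above Slc6a3. Drd2 and Pitx3 also changed places between the libraries, whereas the other neighbours kept the same order in both. Maoa ranked above 64.9% of all protein-coding genes in replicate 1 and above 66.8% in replicate 2. Among detected protein-coding genes it ranked above 39.6% in replicate 1 and 42.8% in replicate 2, so the 6 detected genes all lay below the middle of the expressed range.

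Gch1, the entry enzyme of cofactor synthesis (ENSMUSG00000037580.9, minus strand of chr14:47153895-47189413, GRCm38, as for all positions here), was the lowest of the detected genes. It had 1.85 TPM in replicate 1, with a credible interval of 1.52 to 2.11 TPM, and 1.19 TPM in replicate 2, with an interval of 0.959 to 1.41 TPM. Replicate 1 was the higher, the intervals did not overlap, and the lower bound in replicate 2 was under the detection level. The estimates rest on 145 counts in replicate 1 and 107 in replicate 2. A pair of processed pseudogenes annotated inside the gene, Gm49134 and Gm18811, have no row in the tables used here. Whether they share sequence with the Gch1 transcript was not examined.

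Th (ENSMUSG00000000214.6, minus strand of chr7:142892752-142931128) had 11.9 TPM in replicate 1, with a credible interval of 11.2 to 13.4 TPM, and 6.68 TPM in replicate 2, with an interval of 6.23 to 7.82 TPM. It was the detected gene whose libraries lay furthest apart, and the intervals did not meet. The counts were 606 in replicate 1 and 388 in replicate 2, and the mean was 9.305 TPM ± 3.71 (SD, n = 2). Among detected protein-coding genes, Th ranked above 34.8% in replicate 1 and above 24.9% in replicate 2. Its ratio to Gch1 in TPM was 6.45 in replicate 1 and 5.61 in replicate 2.

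Ddc, which turns L-DOPA into dopamine and also makes serotonin and trace amines (ENSMUSG00000020182.12, minus strand of chr11:11814101-11898144), had 13.4 TPM in replicate 1 and 11.6 TPM in replicate 2. The credible intervals, 12.4 to 15.3 TPM in replicate 1 and 10.6 to 13.1 TPM in replicate 2, overlapped. Its mean was 12.5 TPM ± 1.30 (SD, n = 2), from 580 counts in replicate 1 and 534 in replicate 2. The ratio of Th to Ddc in TPM was 0.89 in replicate 1 and 0.578 in replicate 2. Summed over its transcripts, Ddc was thus the higher in both libraries, by a margin that differed between them. The credible intervals of Th and Ddc overlapped in replicate 1 and did not in replicate 2. The Ddc sum includes processed transcripts without a coding part. The full-length coding forms of Ddc that were assigned counts, Ddc-201 and Ddc-202, together had 7.61 TPM in replicate 1 and 5.74 TPM in replicate 2. That sum was below Th in both libraries by point estimates only. No interval was available for the sum, and Ddc-201 and Ddc-202 each had a wide one. The antisense gene 1700042O10Rik overlaps Ddc over 17199 nt and had 0.42 TPM in replicate 1 and 1.04 TPM in replicate 2. Whether strand was kept is not given in the sources used here, so reads of the pair may be mixed.

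Slc18a2, the vesicular transporter that brain monoamine neurons share (ENSMUSG00000025094.7, plus strand of chr19:59260896-59296012), had 12.7 TPM in replicate 1 and 10.4 TPM in replicate 2. Its credible intervals, 11.8 to 13.1 TPM in replicate 1 and 9.64 to 10.8 TPM in replicate 2, did not overlap. The mean was 11.5 TPM ± 1.65 (SD, n = 2), on 1382 counts in replicate 1 and 1290 in replicate 2. Its ratio to Ddc was close in both libraries, at 0.949 in replicate 1 and 0.897 in replicate 2, whereas its ratio to Th was 1.07 in replicate 1 and 1.55 in replicate 2. An antisense gene at its start, Gm29261, which overlaps it by 524 nt, had 0 counts in both.

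The 300-base windows around the RefSeq starts of Th and Slc18a2 are shown because they were the only ones of the set's 9 windows to share a match among the 8-base elements searched. RefSeq promoters on GRCm38.p6, 250 bases before the start and 50 after it, were found for 8 of the 9 genes, with 2 starts for Ddc. The element, the palindromic cyclic AMP response element TGACGTCA, is in capitals. It lies at -45 to -38 of the Th start and at -4 to 4 of the Slc18a2 start, and 1.79% of 32851 promoters hold it. The window of Th is the minus strand of chr7:142899946-142900245 with 64.3% GC, and that of Slc18a2 the plus strand of chr19:59260628-59260927 with 64.0% GC, against a median of 52.7% over all promoters.
Th: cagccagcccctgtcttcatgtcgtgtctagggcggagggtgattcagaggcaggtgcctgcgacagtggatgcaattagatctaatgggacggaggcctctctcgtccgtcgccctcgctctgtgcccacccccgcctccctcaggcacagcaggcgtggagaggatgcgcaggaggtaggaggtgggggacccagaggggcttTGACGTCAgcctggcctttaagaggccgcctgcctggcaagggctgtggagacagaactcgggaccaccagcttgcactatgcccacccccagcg
Slc18a2: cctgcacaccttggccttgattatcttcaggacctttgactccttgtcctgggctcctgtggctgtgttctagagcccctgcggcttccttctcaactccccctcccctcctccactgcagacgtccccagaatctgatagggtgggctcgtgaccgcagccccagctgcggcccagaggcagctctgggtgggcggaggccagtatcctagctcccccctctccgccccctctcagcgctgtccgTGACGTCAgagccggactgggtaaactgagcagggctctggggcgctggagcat
The TAATCC core of Pitx homeodomain sites, searched on both strands, was in none of the 9 windows and in 7.06% of all promoters. These matches describe letters in the windows and say nothing of binding in this tissue.

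Slc6a3, the plasma membrane transporter that marks mature dopaminergic neurons (ENSMUSG00000021609.6, plus strand of chr13:73536747-73578672), had 0.09 TPM in replicate 1 and 0.08 TPM in replicate 2. These levels rest on 9 counts in each library, and their credible intervals of 0.0423 to 0.162 TPM in replicate 1 and 0.0364 to 0.141 TPM in replicate 2 lay under the detection level. Its vesicular counterpart Slc18a2 stood 141 times higher in TPM in replicate 1 and 130 times higher in replicate 2. The vesicular and the plasma membrane transporter thus lay on different sides of the detection level in both pools.

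Maoa (ENSMUSG00000025037.6, plus strand of chrX:16619698-16687818), the oxidase with a preference for serotonin and noradrenaline that also takes dopamine, had 14.45 TPM in replicate 1 and 15.0 TPM in replicate 2. Its mean was 14.7 TPM ± 0.361 (SD, n = 2), on 1726 counts in replicate 1 and 2045 in replicate 2. It had the most counts and the smallest SD for its level in the set, and its credible intervals overlapped. Its neighbour Maob (ENSMUSG00000040147.10, minus strand of chrX:16709282-16817366), which lies tail to tail with it across a gap of 21463 nt, had 4.34 TPM in replicate 1 and 5 TPM in replicate 2. Maob's intervals overlapped as well, 3.95 to 5.08 TPM in replicate 1 and 4.59 to 5.69 TPM in replicate 2. Maoa exceeded Maob 3.33-fold in replicate 1 and 2.99-fold in replicate 2. Both genes are X-linked, and the labels give mixed-sex pools without the share of each sex.

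Drd2 (ENSMUSG00000032259.7, plus strand of chr9:49340627-49408177) had 0.49 TPM in replicate 1 and 0.31 TPM in replicate 2. Its credible intervals of 0.306 to 0.723 TPM in replicate 1 and 0.178 to 0.488 TPM in replicate 2 overlapped, on 21 counts in replicate 1 and 15 in replicate 2. The tables hold 1 transcript of 1549 nt for it, so its long and short splice forms could not be separated. Relative to Th, Drd2 stood at 0.0411 in replicate 1 and 0.0464 in replicate 2.

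Pitx3 (ENSMUSG00000025229.11, minus strand of chr19:46135685-46148326) had 0.14 TPM in replicate 1 and 0.36 TPM in replicate 2. With 4 counts in replicate 1 and 12 in replicate 2, its intervals were the widest of the set for its level, 0.102 to 0.901 TPM in replicate 1 and 0.261 to 1.24 TPM in replicate 2, and they overlapped. The posterior mean, a second deposited estimate, was higher at 0.45 TPM in replicate 1 and 0.70 TPM in replicate 2, still under the detection level. The last bases of Pitx3 overlap Elovl3 by 10 nt, and Elovl3 had 1 count in replicate 1 and 0 in replicate 2.

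The pools were then compared with each other by a two-sided exact binomial test of the rounded counts of replicate 1 against replicate 2, scaled by TMM factors. P-values were adjusted by Benjamini-Hochberg over 14768 genes, those averaging 1 TPM or more. With 1 library on each side the p-values cover counting error only, not variation between pools. At an adjusted p below 0.05 and a 2-fold difference, 0 of the 6 genes tested were called, with TMM or with DESeq2 size factors, against 347 of all genes (2.35%, made up of 1.68% higher and 0.67% lower in replicate 1). At any size, the adjusted p was below 0.05 for 6 of 6, as was the unadjusted p, against 53.3% of all genes. Of these, 4 were higher in replicate 1, where 26.4% of all genes were, and 2 were lower in replicate 1, where 26.9% of all genes were. The shares over all genes are large enough that the comparison rests on the size of the ratios.

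The synthesis and storage genes were higher in replicate 1 and the oxidases lower. For Th the log2 ratio of replicate 1 over replicate 2 was 0.76, with a 95% counting interval of 0.57 to 0.94 and an adjusted p of 2.82e-15 in the exact binomial test. That ratio, 1.69-fold, exceeded in size those of 94.1% of all genes tested. Gch1 followed with a log2 ratio of 0.55 (0.18 to 0.93; exact binomial adjusted p of 0.00705), larger in size than 89.1% of genes. Ddc and Slc18a2 had smaller log2 ratios of 0.23 (0.06 to 0.41; exact binomial adjusted p of 0.0163) and 0.21 (0.10 to 0.32; exact binomial adjusted p of 0.000439).

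Maob had a log2 ratio of -0.30 (-0.53 to -0.08; exact binomial adjusted p of 0.0155). Maoa had one of -0.13 (-0.23 to -0.04; exact binomial adjusted p of 0.0124), smaller in size than the median of 0.16 over all genes. Scaled by library totals alone it was -0.10 with an adjusted p of 0.0773. The median log2 ratio of the 6 tested genes was 0.22, beside -0.01 over all genes, whose 5th and 95th percentiles were -0.44 and 0.67. Th alone lay outside that range. The intervals of Drd2 (-0.43 to 1.66), Pitx3 (-3.56 to 0.25) and Slc6a3 (-1.39 to 1.62) included 0. Each also reached past 2-fold, that of Drd2 only upward and that of Pitx3 only downward. Neither equal levels nor a 2-fold difference in those directions was thus excluded.

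**Figure D2:**
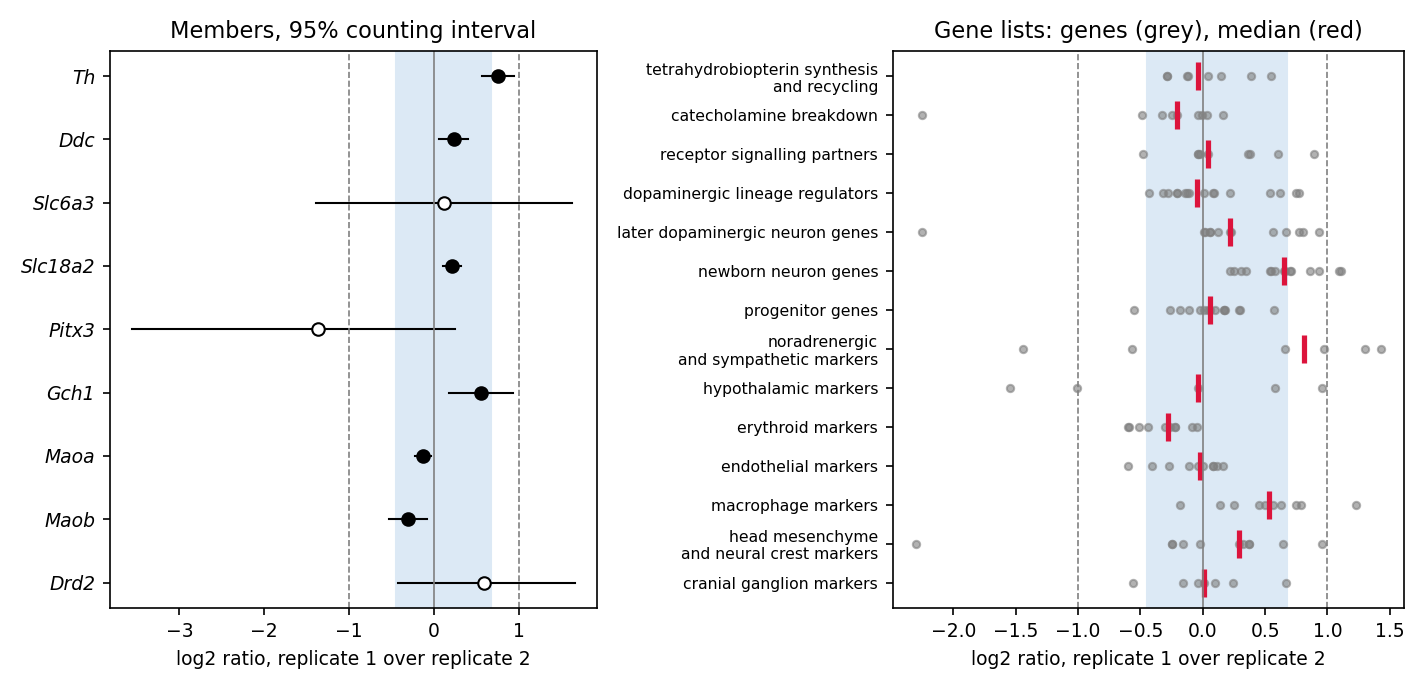
Left, log2 ratio of replicate 1 over replicate 2 for the 9 genes with 95% counting intervals, filled where the gene was tested and open where it was below the test's level; right, the same ratio for single genes of other lists (grey) with list medians (red). Shaded, the 5th to 95th percentile of all genes; dashed, 2-fold. Th lies to the right of the shaded band, and the newborn neuron genes are centred at 0.65.

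Genes of newborn neurons, like Th, were higher in replicate 1. All 15 of 15 in the list, including Tubb3, Gap43 and Stmn2, had a higher estimate in replicate 1, 14 with an adjusted p below 0.05 in the exact binomial test (26.4% of all genes), and the median log2 ratio was 0.65. They summed to 1701 TPM in replicate 1 against 1089 TPM in replicate 2, from Tubb3, a neuronal tubulin, at 562 TPM in replicate 1 and 364 TPM in replicate 2 down to Nhlh1 at 5.81 TPM in replicate 1 and 4.71 TPM in replicate 2. Progenitor genes, with Vim, Hes5 and Fabp7 highest, had a median log2 ratio of 0.06 and summed to 3934 TPM in replicate 1 and 3494 TPM in replicate 2. They were mixed: 7 of 15 were higher and 4 lower in replicate 1 at an adjusted p below 0.05 in the exact binomial test. Over all genes these shares were 26.4% and 26.9%. Fabp7, at 622 TPM in replicate 1 and 397 TPM in replicate 2, had a log2 ratio of 0.57. The part of these neuronal genes' difference in the ratios of Th and the other dopamine genes was not tested.

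Set against Tubb3, the genes separated. Per 1000 TPM of Tubb3, the level of Th was 21.2 TPM in replicate 1 against 18.4 TPM in replicate 2, and that of Gch1 was 3.29 TPM in replicate 1 against 3.27 TPM in replicate 2. On the same scale Ddc stood at 23.8 TPM in replicate 1 and 31.8 TPM in replicate 2, and Slc18a2 at 22.6 TPM in replicate 1 and 28.5 TPM in replicate 2. The oxidases lay further apart: Maoa at 25.7 TPM in replicate 1 and 41.1 TPM in replicate 2, Maob at 7.72 TPM in replicate 1 and 13.7 TPM in replicate 2. On this scale Th was still the higher in replicate 1, Gch1 was nearly equal in both, and the other 4 were lower in replicate 1. For Th and Gch1 this depends on the neuronal gene chosen. By the log2 ratios of TMM-scaled counts, 11 of the 15 in the list had a smaller ratio than Th and 4 a larger one. Against those 4, Th would be the lower in replicate 1. In TPM, genes with ratios close to that of Th can change sides. The log2 ratio of Gch1 was 0.55, as was that of Tubb3, while the list ran from 0.22 for Nhlh1 to 1.11 for Myt1. The near equality of Gch1 thus holds against Tubb3 and not against every gene of the list.

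The genes nearest to each detected gene were sought among 154 listed genes by distance in the plane of mean log2(TPM + 1) and log2 ratio, which uses 2 libraries only. Nearest to Th was Nr4a2, the nuclear receptor gene of newborn dopaminergic neurons, with 11.7 TPM in replicate 1 and 5.89 TPM in replicate 2 and a log2 ratio of 0.77. The ratio of Th to Nr4a2 in TPM was 1.02 in replicate 1 and 1.13 in replicate 2. Elavl3, a neuronal RNA-binding protein gene, was the next at 13 TPM in replicate 1 and 8.23 TPM in replicate 2. Ddc and Slc18a2 were each other's second nearest, at a distance of 0.106, after the endothelial receptor gene Tie1 for both. Gch1 lay nearest to Rgs9 and Dct, Maoa to Prrx1, and Maob to Ferd3l.

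Transcript estimates were examined for the genes with more than 1 annotated form and at least 20 counts in both libraries. For Th, 100% of its level was assigned to Th-201 (ENSMUST00000000219.5, 1829 nt) of 6 annotated transcripts in both libraries. Posterior means left 92.66% to it in replicate 1 and 89.97% in replicate 2. Maob-201 took 98.45% of Maob in replicate 1 and 100% in replicate 2, out of 4 transcripts. Gch1, Maoa, Slc18a2, Slc6a3 and Drd2 have 1 transcript each in the tables.

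Ddc had 10 annotated transcripts, 6 of them with a level above 0 in each library, and the split among its full-length forms differed between the libraries. Ddc-202 (1954 nt) took 42.95% in replicate 1 and 8.12% in replicate 2, while Ddc-201 (1922 nt) took 13.9% in replicate 1 and 41.5% in replicate 2. Together they held 56.8% in replicate 1 and 49.7% in replicate 2. These forms encode the same protein, share 1883 nt and differ mainly in their first exon, of 37 nt in Ddc-201 (chr11:11898008-11898044) and of 71 nt in Ddc-202 (chr11:11890338-11890408), whose starts lie 7636 nt apart.

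The change of places within Ddc was not resolved by the counts. Ddc-201 had a credible interval of 0.0002 to 4.84 TPM in replicate 1 and of 0.525 to 5.41 TPM in replicate 2. For Ddc-202 the interval was 1.98 to 7.49 TPM in replicate 1 and 0.0428 to 4.59 TPM in replicate 2. Each form's intervals overlapped between the libraries. Among the shorter forms that took at least 10%, Ddc-206, a processed transcript over the last exons (964 nt), took 28.8% in replicate 1 and 32.6% in replicate 2, and Ddc-208, which begins at the downstream first exon, took 12.15% in replicate 1 and 10.5% in replicate 2.

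**Figure D3:**
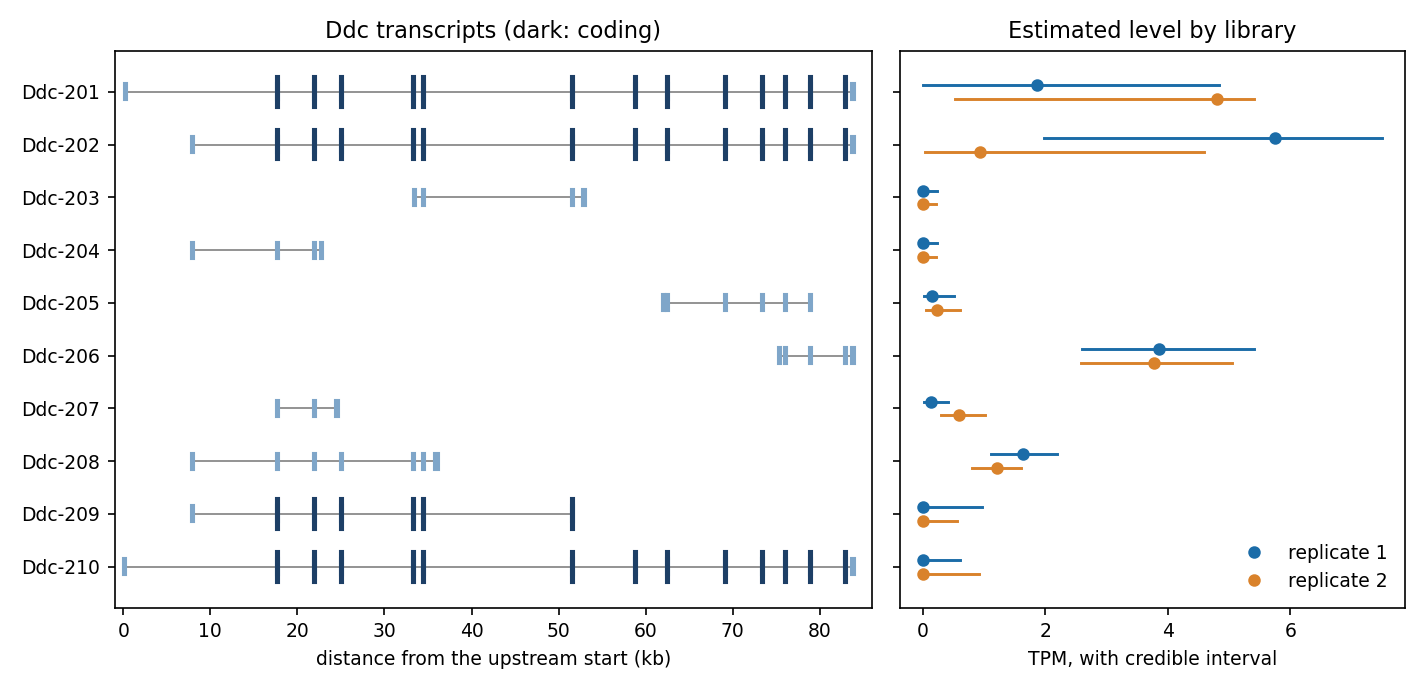
Left, exons of the 10 Ddc transcripts by distance in kb from the upstream start, with coding parts dark; right, TPM of each transcript in replicate 1 (blue) and replicate 2 (orange) with credible intervals. Ddc-201 and Ddc-202 differ mainly in their first exon, and their intervals overlap between the libraries.

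The windows at both RefSeq starts of Ddc are shown since its full-length forms differ in their start. Ddc-downstream is the minus strand of chr11:11890359-11890658 (54.3% GC), whose start is that of Ddc-202. Ddc-upstream is the minus strand of chr11:11898095-11898394 (41.3% GC), whose start is that of Ddc-210, a form with 0 counts in both libraries. The start of Ddc-201 lies 100 nt downstream of it and outside the window, and positions are counted from the RefSeq start. Capitals mark matches on the opposite strand to AAAGGTCA, the Nr4a monomer site (-73 to -66), and to TATAAA, which overlaps it (-68 to -63), in the upstream window, and to CCAAT (-55 to -51) in the downstream window.
Ddc-upstream: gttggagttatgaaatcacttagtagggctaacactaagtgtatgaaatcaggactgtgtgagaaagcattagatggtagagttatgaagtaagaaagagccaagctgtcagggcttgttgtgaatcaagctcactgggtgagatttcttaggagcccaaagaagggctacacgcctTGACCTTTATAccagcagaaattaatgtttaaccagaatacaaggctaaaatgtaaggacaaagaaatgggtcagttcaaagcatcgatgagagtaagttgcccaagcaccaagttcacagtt
Ddc-downstream: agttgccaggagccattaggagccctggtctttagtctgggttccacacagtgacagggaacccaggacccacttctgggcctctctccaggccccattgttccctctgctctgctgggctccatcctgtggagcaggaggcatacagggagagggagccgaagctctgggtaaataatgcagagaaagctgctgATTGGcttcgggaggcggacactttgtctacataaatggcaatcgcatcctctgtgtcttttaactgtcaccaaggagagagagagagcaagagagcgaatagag
Of all promoters, 1.51% hold AAAGGTCA, 13.6% TATAAA and 37.4% CCAAT on either strand. No other window of the 9 held AAAGGTCA, and Gch1 was the other gene with TATAAA and with CCAAT.

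The rest of the pathway was followed through lists of related genes. All 8 of 8 genes of tetrahydrobiopterin synthesis and recycling were detected. Their median was 25.9 TPM, and Gch1 was the lowest of them. Qdpr, which regenerates the cofactor, had 99.1 TPM in replicate 1 and 101 TPM in replicate 2, and Pts and Spr, which act after Gch1, had 63.4 and 41.55 TPM in replicate 1 and 58.2 and 47.7 TPM in replicate 2. At any size, 2 of the 8 were higher and 3 lower in replicate 1 at an adjusted p below 0.05, beside 26.4% and 26.9% of all genes. Among the aromatic amino acid hydroxylases, Th was the only one of 4 detected: Tph1 had 0.45 TPM in replicate 1 and 0.68 TPM in replicate 2, and Tph2, the neuronal enzyme of serotonin synthesis, 0.13 TPM in replicate 1 and 0.06 TPM in replicate 2. Their chaperone Dnajc12 was at 12.3 TPM in replicate 1 and 15.95 TPM in replicate 2.

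Downstream of dopamine, Dbh, which makes noradrenaline, had 0.95 TPM in replicate 1 and 0.90 TPM in replicate 2, and Pnmt, which makes adrenaline, 0 TPM in replicate 1 and 0.06 TPM in replicate 2. Of 10 other transmitter transporters 2 were detected, the monoamine transporter Slc29a4 at 27.5 TPM in replicate 1 and 19.4 TPM in replicate 2 and the glutamate transporter Slc17a6 at 12.4 TPM in replicate 1 and 5.08 TPM in replicate 2. Slc18a1, the close relative of Slc18a2 in endocrine cells, had 0.56 TPM in replicate 1 and 0.87 TPM in replicate 2. Slc18a2 was thus the only detected one of these vesicular monoamine carriers. Slc17a6 was called higher in replicate 1, as were the GABA synthesis genes Gad2 (11.1 TPM in replicate 1 and 3.34 TPM in replicate 2) and Gad1 (6.64 TPM in replicate 1 and 2.20 TPM in replicate 2).

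Of 10 listed genes for the breakdown steps beside the oxidases 9 were detected. Their median, 37.2 TPM, was above the level of either oxidase. The list as written includes Renbp, which has no part in catecholamine breakdown that is known here. The aldehyde reductases Akr1a1 and Akr1b3 were the highest at 462 and 199.9 TPM in replicate 1 and 449 and 240.5 TPM in replicate 2. At any size, 1 of the 9 tested was higher and 5 were lower in replicate 1 in the exact binomial test, beside 26.4% and 26.9% of all genes. Aldh1a1, an aldehyde dehydrogenase found in dopaminergic progenitors and some dopaminergic neurons, was called lower in replicate 1, with 1.24 TPM in replicate 1 and 5.59 TPM in replicate 2 and a log2 ratio of -2.25, opposite in sign to that of Th.

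None of the other dopamine receptors was detected (0 of 4). Drd4 came closest at 0.99 TPM in replicate 1 and 0.55 TPM in replicate 2, followed by Drd1 at 0.30 TPM in replicate 1 and 0.22 TPM in replicate 2. Drd3 had 0 counts in both, which allows up to 0.0754 TPM in replicate 1 and 0.0659 TPM in replicate 2 at 3 counts. Drd2 lay between Drd4 and Drd1. Of 10 signalling partners of the receptor 8 were detected, with the inhibitory G protein genes Gnai2 and Gnai3 among the highest and the adenylyl cyclase gene Adcy5 lowest at 1.23 TPM in replicate 1 and 0.61 TPM in replicate 2.

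**Figure D4:**
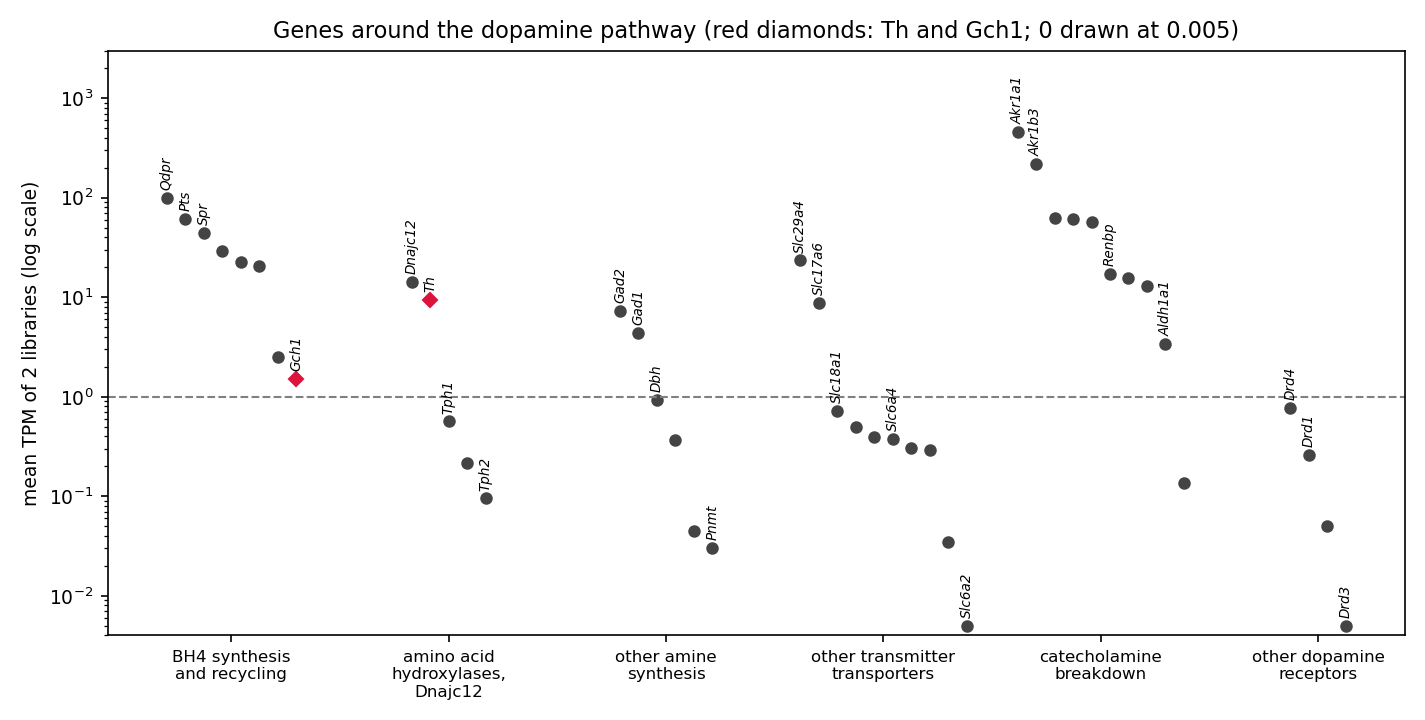
Mean TPM of both libraries on a log axis for genes around the dopamine pathway, grouped by step, with names for the genes given in the text; red diamonds are Th and Gch1, the dashed line is 1 TPM and genes at 0 are drawn at 0.005. Gch1 is the lowest of the cofactor genes, Th is the only detected hydroxylase, and all 4 other dopamine receptors lie under the dashed line.

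Later genes of dopaminergic neurons fell on both sides of the detection level, 13 of 17 being detected. The list's median was 14.4 TPM. Dlk1 and Sncg, which are also expressed outside these neurons, were the highest, with 99.55 and 47.5 TPM in replicate 1 and 91.3 and 26.2 TPM in replicate 2. The lowest, the nicotinic receptor gene Chrnb3, had 0 TPM in replicate 1 and 0.01 TPM in replicate 2. At any size, 7 of the 13 tested were higher and 1 lower in replicate 1 in the exact binomial test, beside 26.4% and 26.9% of all genes, and the median log2 ratio was 0.22, beside -0.01 over all genes. Of the 16 lineage regulators tested, 6 were higher and 5 lower in replicate 1 at an adjusted p below 0.05, beside 26.4% and 26.9% of all genes, with a median log2 ratio of -0.05.

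Other cells that use the same genes were checked by their markers. Of 9 noradrenergic and sympathetic markers 5 were detected. They summed to 83.2 TPM in replicate 1 against 42.0 TPM in replicate 2, most of it from Gata3, Gata2, Chga and Chgb, while the noradrenaline transporter Slc6a2 and the sympathetic factor Hand2, chosen after its value was seen, had 0 counts in both. Phox2a, which noradrenergic neurons require, had 0.63 TPM in replicate 1 and 1.64 TPM in replicate 2. Of 6 serotonergic markers, which summed to 45.5 TPM in replicate 1 against 19.4 TPM in replicate 2, 2 were detected. They were Gata3 and Gata2, which GABAergic midbrain neurons also express. The serotonin transporter gene Slc6a4 had 0.37 TPM in replicate 1 and 0.38 TPM in replicate 2. Hypothalamic markers were detected for 4 of 6 and summed to 24.1 TPM in replicate 1 against 22.0 TPM in replicate 2. They did not move together: Rax and Six6 were called lower in replicate 1, with log2 ratios of -1.01 and -1.55, while Six3 had a log2 ratio of 0.96. Which cells gave the Th, Ddc and Slc18a2 counts was not tested.

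Markers of non-neural cells, which can express Maoa, Maob or Slc18a2, were also present in both pools. All 10 of 10 erythroid markers were lower in replicate 1 at an adjusted p below 0.05 in the exact binomial test (26.9% of all genes), with a median log2 ratio of -0.28 and sums of 14870 TPM in replicate 1 and 16730 TPM in replicate 2. All 10 endothelial markers were detected, with sums of 196.7 TPM in replicate 1 and 213.5 TPM in replicate 2, and all 10 macrophage markers, with 95.95 TPM in replicate 1 and 64.6 TPM in replicate 2. Of the head mesenchyme and neural crest markers 10 of 12 were detected, with a sum of 823 TPM in replicate 1 and 576 TPM in replicate 2 that is carried by the collagen genes Col3a1, Col1a1 and Col1a2. Of the 11 tested 6 had a higher and 5 a lower estimate in replicate 1, and the neural crest factor Sox10 was called lower in replicate 1, with 0.46 TPM in replicate 1 and 2.15 TPM in replicate 2 (log2 ratio of -2.30). Cranial ganglion markers were detected for 7 of 8 and pigment cell markers for 2 of 5. None of these markers was at 0 counts in both libraries, and their part in the levels of Maoa and Maob was not tested.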

How the data were processed

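RNA of 2 pools of E10.5 midbrain was measured, 1 library each. The members and the gene lists were chosen with earlier results of these data known. Per the file headers, the deposited tables were made from transcriptome alignments to mm10 with GENCODE M4; the aligner and the quantifying tool were not stated in the headers or labels (not given in the sources used here). Total RNA-seq is the labels' name for the assay, but they link the manual of a kit that primes on poly(A), so capture and strand are taken as unknown. The deposited expected counts, estimated by sharing reads among transcripts, were rounded for testing. The deposited TPM divide them by effective length (length less 99 nt), and the deposited FPKM served as an alternative. The deposited credible bounds are a signal on the TPM scale, at a confidence level not stated. The deposited isoform percent is a transcript's share of its gene.

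Names and positions came from GENCODE M21 on GRCm38 (42462 of 43346 identifiers matched), and promoters from RefSeq (GRCm38.p6). Spike-in (97) and tRNA (26248) rows stayed out of totals and tests. TMM factors were 1.01 for replicate 1 and 0.988 for replicate 2 (edgeR 4.0.16, R 4.3.3). Ratios had 0.5 added to each count. The self-test ran on simulated counts. For the median member, 1 count was worth 0.0149 TPM in replicate 1 and 0.0129 TPM in replicate 2. Since PCR copies are not independent molecules, all intervals, and the limit of 3 counts set for a gene at 0, reflect counting error alone. Named were all members, the 3 highest and the lowest gene and up to 2 called genes of each of 20 lists, overlapping genes, the 2 nearest listed genes, and transcripts of at least 10%. A few genes named by this rule are not reported here, though list counts, sums and medians include them. Alternatives were DESeq2 1.42.0 size factors, library totals, other minimums and folds, FPKM, posterior means and single replicates. Python 3.11.15, numpy 2.4.6, pandas 2.3.3 and scipy 1.17.1 were used.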

Additional observations from a re-analysis of the deposited data

How the results depend on the processing

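Between 5 and 8 of the 9 genes were detected under the 8 other settings, 8 at a minimum of 0.1 TPM and 5 with FPKM, at 2 TPM or by the lower credible bound; leaving out either replicate left 6. Of the genes tested, 1 (Th) was called between the libraries at 1.5-fold and none under the other alternatives. Over all genes, 1085 were called with no filter on low values (24638 tested), 100 at a mean of at least 5 TPM (10816 tested, fewer by construction) and 1124 at 1.5-fold. Log2 ratios of the members kept their direction in 43 of 43 recalculations. Where both settings gave an adjusted p, they kept their side of the threshold in 21 of 22, the exception being Maoa with library totals (-0.10, adjusted p of 0.0773); the cause was not tested. With both libraries kept, mean levels moved by less than 1 SD of the libraries in 12 of 18, and Pitx3 by its posterior mean came to 0.575 TPM. Counts of detected genes per list stayed within 1.5 times in 79 of 80. The share of Ddc-206 was 18.7% of counts against 30.7% of TPM, as the form is short. No paired analysis was possible because there is 1 group. Counts of 4 to 21 limit Pitx3, Slc6a3 and Drd2.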
